A study of Homo sapiens with 18 samples.

Results

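The genes described here encode the subunits of the mitochondrial respiratory chain and of ATP synthase. They were the rows of the deposited expression table whose symbol begins with NDUFA, NDUFB, NDUFC, NDUFS, NDUFV, SDHA to SDHD, UQCR, COX4 to COX8 or ATP5, without the assembly factors NDUFAF and SDHAF, together with the 13 protein genes of mitochondrial DNA. The rule found 107 of 26668 gene symbols, of which 101 were subunit genes (88 nuclear and 13 mitochondrial) and 6 were antisense or divergent transcripts that share a subunit gene's name. Complex I had 44 of the subunit genes, complex II 4, complex III 10, complex IV 22 and complex V, the ATP synthase, 21. Among the complex IV genes were NDUFA4 and its paralog NDUFA4L2, since NDUFA4 is now regarded as a cytochrome c oxidase subunit.

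RNA was sequenced from PANC1, MIA PaCa-2 and PATU8988T, which are established human lines of pancreatic carcinoma, with 3 control and 3 OFD1 knockdown libraries in each. The knockdown cells carried a doxycycline-inducible shRNA against OFD1, a centrosomal and ciliary protein, and were collected 72 h after doxycycline. For the controls, the sample titles name a control shRNA, other label fields give wild type without treatment, and the paper's methods describe uninduced cells of the same inducible lines given DMSO, so the effect of doxycycline or of separately made cells cannot be told apart from that of the knockdown. The source names and cell line fields of PATU8988T replicates 2 and 3 differ from the titles, which were followed, and the labels do not say that replicates were separate cultures, so p-values measure the spread between these libraries only, and less of an RNA per cell cannot be told apart from fewer of the cells that hold it.

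Oxidative phosphorylation passes electrons from NADH through complex I, or from succinate through complex II, to coenzyme Q, then through complex III and cytochrome c to complex IV, which reduces oxygen. Complexes I, III and IV pump protons across the inner mitochondrial membrane, and ATP synthase lets them flow back to make ATP. Most subunits are made from nuclear genes and imported, whereas a small core is encoded in mitochondrial DNA, whose strands are transcribed as long precursors that are cut into single RNAs. OFD1 is not a known subunit or assembly factor of this machinery.

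Each library held between 32486479 and 39797537 counted reads, and values are given as FPKM, that is, reads per gene divided by gene length and library total. A gene was tested within a line when its mean over the 6 libraries was at least 1 FPKM. All changes are differences of log2(FPKM + 0.1), knockdown minus control, with limma's standard error and a p-value adjusted over all genes of the line by the Benjamini-Hochberg method. A gene is called higher or lower at an adjusted p below 0.05. KRT8 and KRT18, keratins of epithelial cells, were above 316 FPKM in every library, whereas KRT19 had at most 0.0194 FPKM in PATU8988T and EPCAM at most 0.0991 FPKM in MIA PaCa-2. KRT7, another keratin of epithelial cells, had 3.54 to 5.37 FPKM in PANC1, 0.614 to 1.21 in MIA PaCa-2 and 0.108 to 0.478 in PATU8988T. PTPRC, a leukocyte marker, reached 2.32 to 6.22 FPKM in MIA PaCa-2 and at most 0.0773 FPKM elsewhere. Markers of endothelium, beta cells and hepatocytes (PECAM1, INS and ALB) did not exceed 0.0806 FPKM, and the acinar PRSS1 reached 1.05 FPKM in PANC1. MIA PaCa-2 control replicate 2 stood apart: the chi-square over its degrees of freedom was 130 and 132 against the other controls of its line, compared with 3.05 to 12.4 for the other 16 replicate pairs, and MIA PaCa-2 results are therefore also given without it.

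The targeted gene was lower in each line. In PANC1, OFD1 had 5.50, 5.12 and 5.67 FPKM in the controls and 2.80, 2.27 and 2.58 in the knockdown libraries (log2 change -1.07, standard error 0.0901, adjusted p = 2.70e-06). PATU8988T had 2.14, 1.93 and 2.12 FPKM in the controls against 0.986, 0.894 and 0.854 (-1.10, standard error 0.103, adjusted p = 5.47e-05). MIA PaCa-2 had 3.09, 2.27 and 3.20 FPKM against 1.76, 1.74 and 1.97 (-0.61, standard error 0.159, adjusted p = 0.0232), and no library of one group overlapped with the other in any line. The MIA PaCa-2 call was lost when control replicate 1 or 3 or any single knockdown library was left out (adjusted p from 0.0604 to 0.0896), and without control replicate 2 the change was -0.76 (adjusted p = 8.76e-05).

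The clearest result of the group was COX7C, a small nuclear subunit of cytochrome c oxidase, which fell in every line. In PANC1 it had 318, 320 and 338 FPKM in the controls and 29.2, 24.9 and 22.3 after knockdown, from means of 325 ± 11.3 to 25.5 ± 3.50 (SD, n = 3). The MIA PaCa-2 libraries had 225, 321 and 223 FPKM against 39.8, 36.0 and 38.7. PATU8988T had 429, 410 and 407 FPKM against 248, 261 and 261. All control libraries were above all knockdown libraries of the same line, with 481 to 7433 reads behind each PANC1 value and 5692 to 9967 behind each PATU8988T value. The log2 changes were -3.68 (standard error 0.0778, adjusted p = 1.95e-10) for PANC1, -2.72 (standard error 0.148, adjusted p = 1.56e-04) for MIA PaCa-2 and -0.69 (standard error 0.0374, adjusted p = 2.17e-06) for PATU8988T, that is, 12.8-fold, 6.60-fold and 1.62-fold lower. Without MIA PaCa-2 control replicate 2, which had the highest COX7C value of that line, the change there was -2.55. The PANC1 fall was larger than those in MIA PaCa-2 (difference -0.96, adjusted p = 0.00235) and PATU8988T (-2.98, adjusted p = 4.77e-12), and the MIA PaCa-2 fall was larger than the PATU8988T fall (-2.03, adjusted p = 3.99e-06).

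COX7C lies on chromosome 5 from 86617904 to 86620962 on the plus strand (GENCODE v29, GRCh38). The 250 bases before its RefSeq start site are shown because this gene had the largest fall of the group in each line, with those of NDUFA12 and UQCRFS1, which fell in PANC1 and MIA PaCa-2 and hold a motif of a known regulator of respiratory genes. Capitals in COX7C mark the core of the ZNF143 motif (ACTACA, any base, TTCCC), and capitals in UQCRFS1 mark the motif of the transcription factor NRF1 (GCGC, any base, TGCGC). In NDUFA12 the NRF1 motif lies on the opposite strand, so its capitals read as the reverse complement (GCGCA, any base, GCGC). The windows are chr5:86617691-86617940 (plus strand), chr12:95003698-95003947 (minus strand) and chr19:29213152-29213401 (minus strand) of GRCh38.p14, written 5′ to 3′ on the strand of the gene.
COX7C: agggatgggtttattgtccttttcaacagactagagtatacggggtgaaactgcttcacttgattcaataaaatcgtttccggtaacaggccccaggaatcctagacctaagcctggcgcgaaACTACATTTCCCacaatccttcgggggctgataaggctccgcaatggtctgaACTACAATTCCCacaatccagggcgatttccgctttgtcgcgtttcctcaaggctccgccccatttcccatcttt
NDUFA12: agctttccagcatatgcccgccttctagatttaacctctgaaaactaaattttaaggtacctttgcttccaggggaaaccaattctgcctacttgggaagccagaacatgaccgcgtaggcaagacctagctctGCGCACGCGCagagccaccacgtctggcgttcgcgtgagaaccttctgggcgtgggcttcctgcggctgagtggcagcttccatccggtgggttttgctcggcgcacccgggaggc
UQCRFS1: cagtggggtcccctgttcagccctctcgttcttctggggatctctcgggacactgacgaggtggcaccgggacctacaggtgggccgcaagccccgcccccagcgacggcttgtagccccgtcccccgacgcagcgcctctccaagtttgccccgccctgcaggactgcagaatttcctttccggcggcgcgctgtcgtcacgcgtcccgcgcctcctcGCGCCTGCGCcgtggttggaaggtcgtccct

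The RefSeq windows of 300 bases (250 before and 50 from the start site) were found for 70 of the 88 nuclear subunit genes and searched on both strands. Some genes had several windows, and a gene was counted when any of its windows held the motif. The NRF1 motif was in 17 of the 70 genes (24.3%), against 6.98% of 27305 genes with a window. CCGGAAG, a core letter string of ETS family factors such as GABP, was in 21 (30.0%, against 12.2% of all genes), and AAGATGGCG, the YY1 motif, was in 9 (12.9%, against 2.14%). None of these 3 was in the COX7C, COX7A2L or ATP5PB windows. The ZNF143 letters were searched after the COX7C window had been read, where they occurred 2 times, from 127 to 116 and from 75 to 64 bases before the start. They were also in the window of COX7B and in 0.960% of all genes. A match is a description of the sequence and not a measured binding site. NDUFA3, whose window also holds the NRF1 motif, rose in PANC1 (0.37) and MIA PaCa-2 (0.38). NDUFS4, which fell in both of these lines (-0.64 and -0.58), has no match to it. Whether any motif bears on the changes was not tested. COX7B, another small cytochrome c oxidase subunit, fell by 0.16 on the log2 scale in PANC1 (adjusted p = 1.41e-04) and had changes of 0.00 (adjusted p = 0.967) in MIA PaCa-2 and of 0.12 (adjusted p = 0.109) in PATU8988T.

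**Figure D1:**
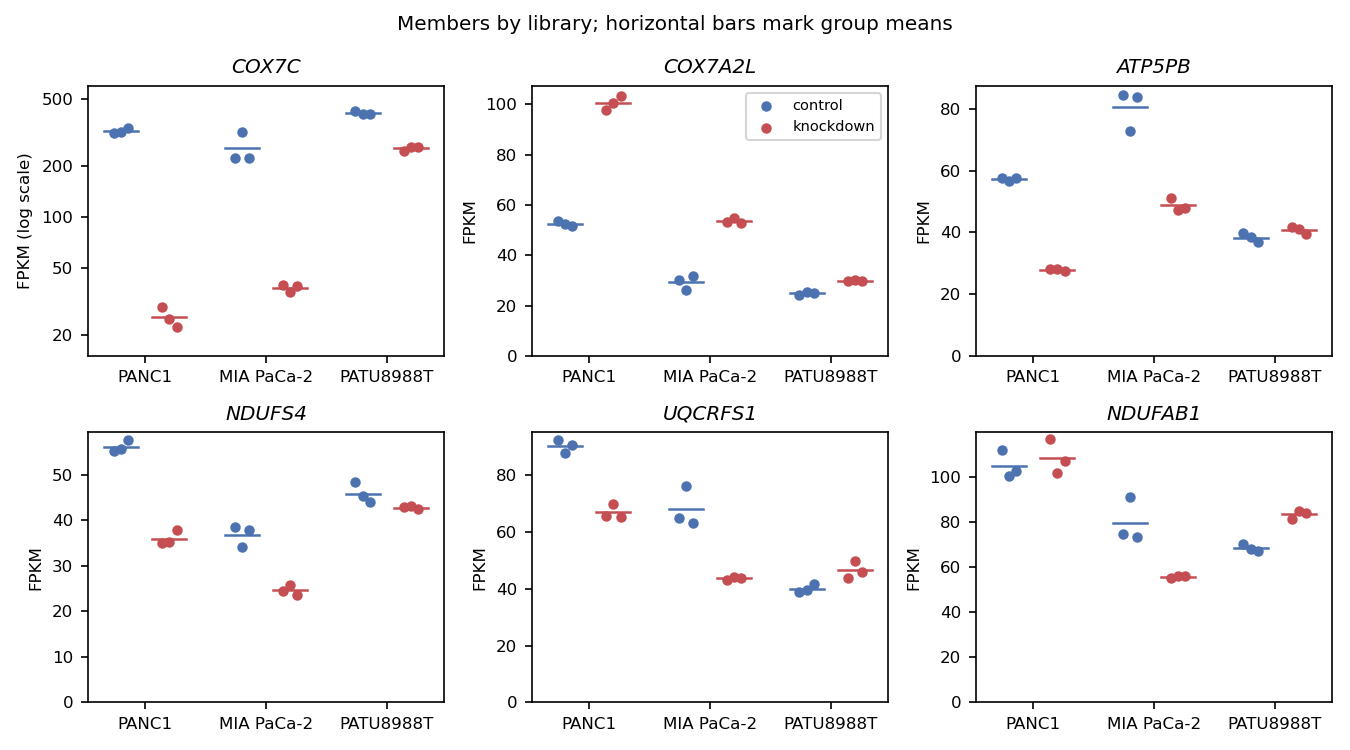
FPKM of COX7C (log axis), COX7A2L, ATP5PB, NDUFS4, UQCRFS1 and NDUFAB1 (linear axes from 0) in each of the 18 libraries, where blue points are controls, red points are knockdown libraries and horizontal bars are group means. COX7C was lower and COX7A2L higher after knockdown in all 3 lines, whereas ATP5PB and UQCRFS1 fell in PANC1 and MIA PaCa-2 only, and UQCRFS1 rose in PATU8988T. Gene lengths used for PANC1 differ, so levels are to be compared within a line.

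The opposite direction in all 3 lines was led by COX7A2L, a relative of the COX7A subunits that joins complexes III and IV into supercomplexes. Its values were 53.4, 52.4 and 51.4 FPKM in the PANC1 controls against 97.7, 101 and 103, 30.0, 26.1 and 31.8 in the MIA PaCa-2 controls against 53.3, 54.8 and 52.8, and 24.4, 25.3 and 25.1 in the PATU8988T controls against 29.8, 30.3 and 29.7. The knockdown libraries were above the controls in every line without overlap. The log2 changes were 0.94 (standard error 0.0297, adjusted p = 2.68e-09), 0.88 (standard error 0.0907, adjusted p = 7.81e-04) and 0.26 (standard error 0.0377, adjusted p = 6.71e-04). The rise was larger in PANC1 than in PATU8988T (difference 0.67, adjusted p = 1.32e-08).

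Of 79 members tested in all 3 lines, COX7C alone was called lower in each (1.27%, against 3.71% of the 9083 genes tested in all 3) and 6 were called higher in each (7.59%, against 2.74%). Besides COX7A2L these were UQCRC2 (a core protein of complex III), COX5A, COX7A2 and COX4I1 (subunits of complex IV) and ATP5MG (subunit g of ATP synthase). In the order PANC1, MIA PaCa-2, PATU8988T, UQCRC2 rose by 0.10, 0.39 and 0.19, COX5A by 0.09, 0.34 and 0.18, and COX7A2 by 0.23, 0.27 and 0.27. COX4I1 rose by 0.20, 0.26 and 0.13, and ATP5MG by 0.18, 0.24 and 0.29. None of these 5 changes reached 2-fold in any line. In PANC1, where the median over all genes was 0.06, the calls of UQCRC2 and COX5A were each lost in 2 alternative settings. Over the alternatives, their changes there went down to 0.049 and 0.037, and their adjusted p up to 0.141 and 0.159. In MIA PaCa-2, the calls of COX5A and ATP5MG were lost without any single knockdown library (adjusted p from 0.0650 to 0.0998), and those of COX7A2 and COX4I1 also without control replicate 1 or 3 (adjusted p from 0.0600 to 0.114). In PATU8988T, the COX4I1 call was lost without any control library or without knockdown replicate 2 or 3 (adjusted p from 0.0582 to 0.128).

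**Figure D2:**
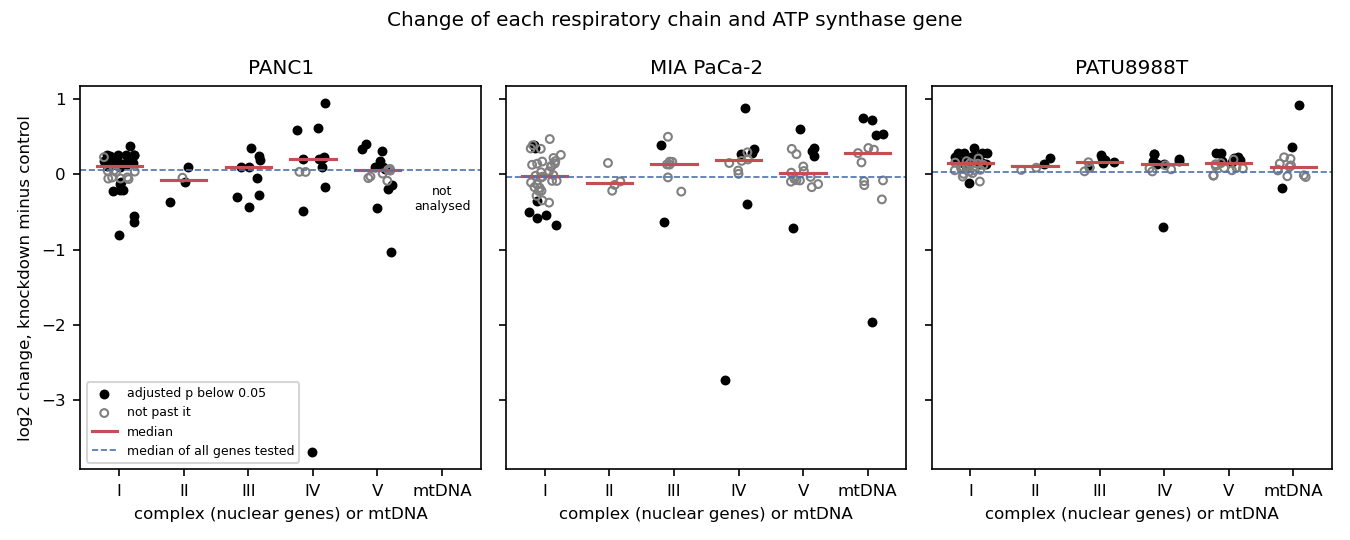
Log2 change (knockdown minus control) of every tested subunit gene by complex for nuclear genes and for the mitochondrially encoded genes (mtDNA), in 1 panel per line. Filled points have an adjusted p below 0.05, red bars are medians of each column and the dashed line is the median of all genes tested. Within 0.5 log2 units of 0 lay 73 of 81 nuclear genes in PANC1, 70 of 79 in MIA PaCa-2 and 78 of 79 in PATU8988T, with COX7C far below the rest in PANC1 and MIA PaCa-2.

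In PANC1, 81 members were tested, all nuclear, and the 23 members listed at 0 in all libraries, including the 13 mitochondrial genes, were not analysed there. A total of 40 were higher (49.4%, against 40.1% of all 10902 genes tested) and 21 lower (25.9%, against 32.2%), and 2 passed a 2-fold change (against 6.6% of all genes). The median change was 0.07, beside 0.06 over all genes tested. Under median-of-ratios scaling, which lowered the median of all genes from 0.06 to 0.01, 27 members were higher (33.3%, against 34.8% of all genes) and 28 lower (34.6%, against 35.8%). By complex, 19 of 37 nuclear complex I genes rose and 8 fell, 5 of 9 complex III genes rose and 4 fell, 8 of 13 complex IV genes rose and 3 fell, and 7 of 18 ATP synthase genes rose and 4 fell.

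The other member past 2-fold in PANC1 was ATP5PB, subunit b of the peripheral stalk of ATP synthase. It had 57.4, 56.7 and 57.6 FPKM in the PANC1 controls against 28.1, 28.1 and 27.5 (log2 change -1.03, standard error 0.0291, adjusted p = 1.23e-09), and 84.5, 72.9 and 83.9 in the MIA PaCa-2 controls against 51.2, 47.3 and 47.8 (-0.72, standard error 0.0842, adjusted p = 0.00121). In PATU8988T its groups overlapped, with 39.9, 38.3 and 36.7 FPKM against 41.6, 41.0 and 39.5 (0.09, adjusted p = 0.132). The change differed between PANC1 and PATU8988T by -1.12 (adjusted p = 1.66e-10).

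The next largest falls in PANC1 were in complex I accessory subunits. NDUFB8, of the membrane arm, had 128, 141 and 129 FPKM in the controls against 77.1, 71.8 and 79.0 (-0.80, standard error 0.0437, adjusted p = 1.01e-07). NDUFS4, near the NADH-oxidizing end of the matrix arm, had 55.2, 55.6 and 57.6 against 34.9, 35.2 and 37.9 (-0.64, standard error 0.0382, adjusted p = 2.02e-07). NDUFA12, which sits in the same arm, had 152, 146 and 146 against 99.8, 97.8 and 105 (-0.55, standard error 0.0312, adjusted p = 1.39e-07). None of the 3 had overlapping groups in PANC1, but this was a condition for being named among the largest falls. The groups of 61 nuclear subunit genes did not overlap there. In MIA PaCa-2, NDUFS4 fell by 0.58 (adjusted p = 0.00244) and NDUFA12 by 0.67 (adjusted p = 6.64e-04), while NDUFB8 changed by -0.38 and did not pass (adjusted p = 0.148). Control replicate 2 had 183 FPKM of NDUFB8 against 118 and 110 in the other MIA PaCa-2 controls, and without it the change was -0.15 (adjusted p = 0.00497). In PATU8988T, the changes were -0.11 for NDUFB8 (adjusted p = 0.0455, lost without knockdown replicate 1 or 3 or any control library, adjusted p from 0.0538 to 0.161), -0.10 for NDUFS4 (adjusted p = 0.0957) and 0.05 for NDUFA12 (adjusted p = 0.406).

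Rises in PANC1 after COX7A2L were led by NDUFA4L2, NDUFA4, the ATP synthase c-ring gene ATP5MC2 and the complex I subunit NDUFA3. NDUFA4 had 59.5, 59.8 and 61.9 FPKM in the controls against 88.9, 89.5 and 93.5 (0.58, standard error 0.0299, adjusted p = 6.64e-08). It also rose in PATU8988T (0.18, adjusted p = 0.00355). In MIA PaCa-2 it changed by 0.15 with all libraries (adjusted p = 0.101) and by 0.15 without control replicate 2 (adjusted p = 0.00164). NDUFA3 rose in PANC1 (0.37, adjusted p = 5.68e-06) and MIA PaCa-2 (0.38, adjusted p = 0.00613). Its groups did not overlap in either line, which in PANC1 was a condition for being named among the largest rises.

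In MIA PaCa-2, 92 members were tested, of which 15 were higher (16.3%, against 18.7% of all 10758 genes tested) and 10 lower (10.9%, against 21.7%), and 2 passed a 2-fold change (against 7.75% of all genes). The median change was 0.04, beside -0.03 over all genes. Control replicate 2 decided most of these counts: without it 50 members were higher (54.3%, against 35.1% of all genes) and 23 lower (25%, against 40%). All 25 members called with the 6 libraries were called in the same direction without it. Leaving out any single knockdown library instead left 8 higher (8.70%, against 10.5% to 10.6% of all genes) and 7 lower (7.61%, against 12.2% to 12.5%). The largest nuclear falls after COX7C were those of ATP5PB, NDUFA12 and UQCRFS1, and the largest nuclear rises those of COX7A2L and ATP5PD.

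**Figure D3:**
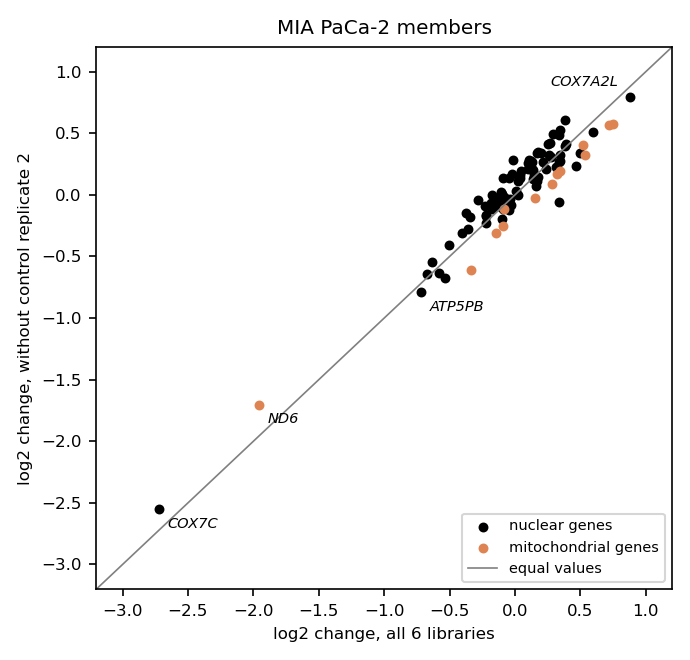
Log2 change of each of the 92 members tested in MIA PaCa-2 with all 6 libraries (horizontal axis) and without control replicate 2 (vertical axis), where black points are nuclear genes, orange points are mitochondrial genes and the line marks equal values. COX7C (-2.72 and -2.55), ND6 (-1.96 and -1.70), ATP5PB (-0.72 and -0.79) and COX7A2L (0.88 and 0.80) lay near the line, and 10 members differed in sign, none of them past the threshold with all 6 libraries.

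UQCRFS1 encodes the Rieske iron-sulfur protein, the catalytic subunit of complex III that hands electrons to cytochrome c1. It had 92.4, 87.9 and 90.7 FPKM in the PANC1 controls against 65.8, 70.0 and 65.4 (-0.43, adjusted p = 1.57e-06), and 64.9, 76.2 and 63.0 in the MIA PaCa-2 controls against 43.2, 44.1 and 44.0 (-0.63, adjusted p = 0.00240). In PATU8988T it rose, from 39.0, 39.7 and 41.6 to 43.8, 49.8 and 45.9 FPKM (0.21, adjusted p = 0.0102). The changes differed between PANC1 and PATU8988T (-0.64, adjusted p = 6.87e-07) and between MIA PaCa-2 and PATU8988T (-0.84, adjusted p = 7.99e-05).

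ATP5PD, subunit d of the ATP synthase stalk, had 145, 122 and 146 FPKM in the MIA PaCa-2 controls against 219, 219 and 185 (0.59, standard error 0.103, adjusted p = 0.00522). Its changes of 0.06 in PANC1 (adjusted p = 0.226) and 0.19 in PATU8988T (adjusted p = 0.0725) did not pass. NDUFAB1, the mitochondrial acyl carrier protein and a complex I subunit, fell in MIA PaCa-2 from 74.5, 91.0 and 73.2 to 54.9, 55.9 and 56.1 FPKM (-0.51, adjusted p = 0.00741), and rose in PATU8988T from 70.2, 68.1 and 67.0 to 81.2, 84.8 and 83.9 (0.28, adjusted p = 3.43e-04). Its PANC1 groups overlapped (0.05, adjusted p = 0.430).

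In PATU8988T, 94 members were tested. A total of 44 were higher (46.8%, against 20.9% of all 10698 genes tested) and 3 lower (3.19%, against 18.5%), and 0 passed a 2-fold change (against 1.0% of all genes). The rises were small: the median change of the 79 nuclear subunit genes was 0.15, beside 0.03 over all genes, with 73 above 0 and none of the rises above 0.34. They were spread over the complexes, with 19 of 37 nuclear complex I genes, 2 of 4 complex II genes, 6 of 9 complex III genes, 7 of 12 complex IV genes and 7 of 17 ATP synthase genes called higher. The 2 nuclear genes called lower were COX7C and NDUFB8. Without control replicate 2 of this line, 25 members were higher (26.6%, against 13.6% of all genes), and over the other left-out libraries the count was 32 to 47 (34.0% to 50%, against 14.3% to 23.3%).

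The largest nuclear rises in PATU8988T were in complex I, those of NDUFB2 (116, 110 and 122 FPKM against 135, 159 and 147, a change of 0.34, adjusted p = 0.00209), NDUFAB1 and NDUFB1 (152, 138 and 157 against 185, 177 and 180, a change of 0.28, adjusted p = 0.00173), and in ATP5MG. NDUFB2 also rose in PANC1 (0.25, adjusted p = 2.09e-04). Its MIA PaCa-2 change was 0.04 (adjusted p = 0.788), and 0.14 without control replicate 2 of that line (adjusted p = 0.0227).

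**Figure D4:**
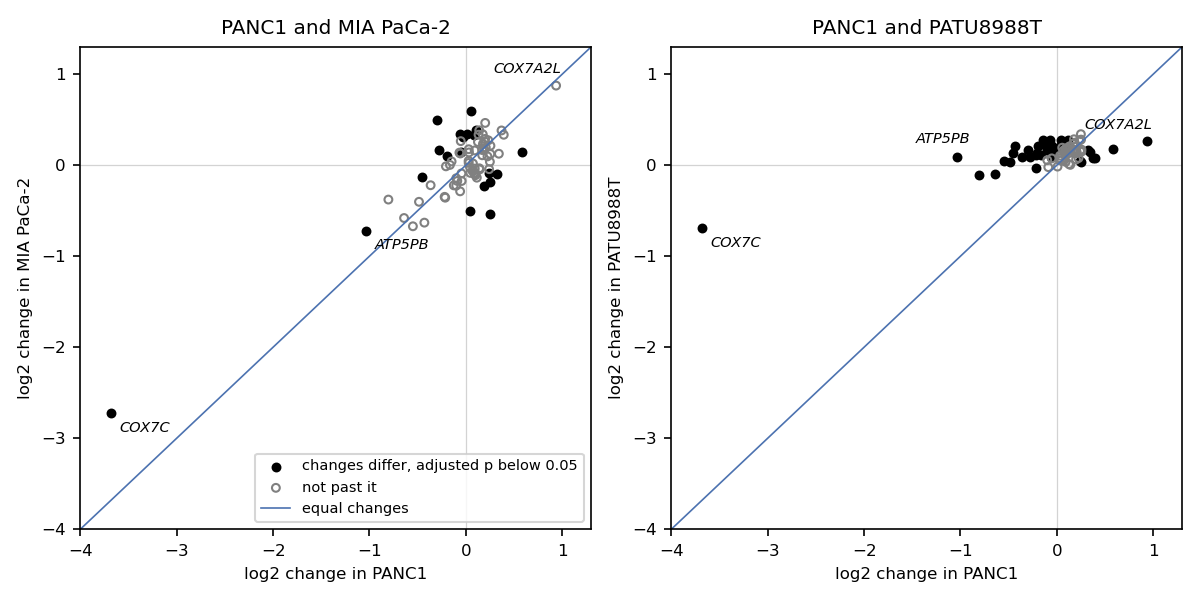
Log2 change of each of the 79 members tested in both lines, with PANC1 on the horizontal axis and MIA PaCa-2 (left) or PATU8988T (right) on the vertical axis. Filled points are members whose changes differ between the lines at an adjusted p below 0.05 and the blue line marks equal changes. PATU8988T values span a narrow range apart from COX7C, while PANC1 and MIA PaCa-2 share several of the larger falls.

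Differences between lines were tested directly as an interaction term. Changes in PANC1 and MIA PaCa-2 differed for 20 of 79 members (25.3%, against 35.4% of all genes), those in PANC1 and PATU8988T for 40 of 79 (50.6%, against 56.7%), and those in MIA PaCa-2 and PATU8988T for 27 of 92 (29.3%, against 45.7%). In the PANC1 and PATU8988T comparison, 32 of the 40 (80%) had the lower change in PANC1, against 49.4% of all genes called there. Between PANC1 and MIA PaCa-2, 13 of the 20 (65%) had it in PANC1, against 40.9%. Between MIA PaCa-2 and PATU8988T, 19 of the 27 (70.4%) had it in MIA PaCa-2, against 57.9%. Members called in opposite directions were UQCRFS1, UQCRH, UQCRHL, ATP5F1B, ATP5MC1, NDUFA6 and NDUFA9, all lower in PANC1 and higher in PATU8988T. NDUFAB1, NDUFC2 and UQCRFS1 were lower in MIA PaCa-2 and higher in PATU8988T, COX1 was higher in MIA PaCa-2 and lower in PATU8988T, and NDUFC2 was higher in PANC1 and lower in MIA PaCa-2. UQCRHL is a near-identical copy of UQCRH, and how reads were split between them was not given, so both are uncertain. The UQCRHL call in PATU8988T (0.17) was lost without control replicate 1 or 2 or knockdown replicate 2 (adjusted p from 0.0578 to 0.111). MIA PaCa-2 control replicate 2 bears on these counts, since 46 members differed from PANC1 and 52 from PATU8988T without it.

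Complex II has 4 subunits and also works in the tricarboxylic acid cycle as succinate dehydrogenase. SDHC, a membrane anchor, fell in PANC1 from 68.3, 67.0 and 60.7 to 51.1, 52.0 and 48.9 FPKM (-0.36, adjusted p = 4.42e-05). SDHA, the flavoprotein, fell by 0.10 there (adjusted p = 0.0259, lost without control replicate 1 or knockdown replicate 3, adjusted p = 0.0821 and 0.10), and the anchor SDHD rose by 0.09 (adjusted p = 0.00966). The iron-sulfur subunit SDHB changed by -0.05 in PANC1 (adjusted p = 0.0952) and rose by 0.22 in PATU8988T (adjusted p = 0.00103), where SDHD rose by 0.13 (adjusted p = 0.0279, lost without control replicate 2 or 3 or knockdown replicate 3, adjusted p from 0.0809 to 0.115). In MIA PaCa-2, limma called none of the 4 (changes from -0.22 to 0.15). Without control replicate 2 of that line, SDHB was higher (0.17, adjusted p = 5.99e-04) and SDHC and SDHD lower (-0.23 and -0.20, adjusted p = 0.00212 and 3.35e-04).

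The catalytic ATP synthase genes moved little. ATP5F1B, the catalytic beta subunit, had the highest control level of the nuclear members in each line. It fell in PANC1 from 693, 701 and 695 to 614, 603 and 603 FPKM (-0.20, standard error 0.0158, adjusted p = 1.75e-06) and rose in PATU8988T from 534, 523 and 543 to 586, 647 and 616 (0.21, adjusted p = 0.00383). In MIA PaCa-2 the controls of 450, 562 and 444 FPKM overlapped with 515, 511 and 527 (0.10, adjusted p = 0.433), and without control replicate 2 the change was 0.21 (adjusted p = 1.17e-05). ATP5F1A, the alpha subunit, changed by 0.07 in PANC1 (adjusted p = 0.0299, lost without control replicate 2 or knockdown replicate 1 or 3, adjusted p from 0.0607 to 0.109), by 0.02 (adjusted p = 0.874) in MIA PaCa-2 and by 0.23 (adjusted p = 0.00123) in PATU8988T. Without MIA PaCa-2 control replicate 2 its change there was 0.11 (adjusted p = 0.00212). ATP5IF1, the inhibitor that blocks ATP hydrolysis by the enzyme, did not pass in any line (changes of -0.09, -0.17 and -0.02).

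The 3 ATP5MC genes encode the same mature c-ring protein with different import signals. In PANC1, ATP5MC2 rose from 60.8, 61.2 and 59.6 to 80.8, 77.6 and 80.5 FPKM (0.39, adjusted p = 6.95e-07), ATP5MC3 fell from 90.1, 88.9 and 92.5 to 67.5, 66.4 and 64.5 (-0.45, adjusted p = 2.96e-07), and ATP5MC1 fell by 0.15 (adjusted p = 8.45e-05). The share of ATP5MC2 in the summed FPKM of the 3 genes was 18.2% ± 0.250 (SD, n = 3) in the PANC1 controls and 25.7% ± 0.493 after knockdown. In PATU8988T only ATP5MC1 passed (0.28, adjusted p = 0.00420), and in MIA PaCa-2 limma called none with all libraries. Without MIA PaCa-2 control replicate 2, ATP5MC2 (0.49, adjusted p = 3.11e-05) and ATP5MC1 (0.16, adjusted p = 0.00158) were higher. ATP5MC3 was then lower (-0.09, adjusted p = 0.0107). With all libraries, the ATP5MC2 share was 9.05% ± 0.647 in the MIA PaCa-2 controls and 11.3% ± 0.552 after knockdown. In PATU8988T it was 36.6% ± 1.25 against 34.3% ± 0.398.

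Alternative isoforms of complex IV are used in muscle, lung, testis and other tissues. COX4I2, COX6A2, COX7A1, COX7B2 and COX8C had a mean of at most 0.119 FPKM in each line, with at most 8 reads in any library. The ubiquitous COX4I1, COX6A1, COX6B1, COX7A2 and COX8A had control means between 39.2 and 580 FPKM. COX6B1 fell in PANC1 from 574, 581 and 585 to 403, 438 and 403 FPKM (-0.49, adjusted p = 2.87e-07) and in MIA PaCa-2 by 0.40 (adjusted p = 0.0123, lost without any single knockdown library, adjusted p from 0.0513 to 0.0575), and changed by 0.04 in PATU8988T (adjusted p = 0.541). The testis isoform COX6B2 had 0.463 to 0.554 FPKM in the PANC1 controls and 0.0556 to 0.146 after knockdown, from 4 to 42 reads, which was under the tested level. COX6A1 changed by 0.19 in MIA PaCa-2 (adjusted p = 0.240), and by 0.34 without control replicate 2 of that line (adjusted p = 4.09e-06). It rose in PANC1 (0.21, adjusted p = 6.01e-06) and in PATU8988T (0.14, adjusted p = 0.0384, lost without control replicate 1 or 2 or knockdown replicate 2 or 3). COX8A rose in PATU8988T (0.19, adjusted p = 0.0255, lost without the same 4 libraries). Over the left-out libraries that ended these calls the adjusted p was 0.0842 to 0.148 for COX6A1 and 0.0549 to 0.103 for COX8A.

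NDUFA4L2 is a hypoxia-induced paralog of NDUFA4. In PANC1 it had 1.22, 1.41 and 1.30 FPKM in the controls and 1.74, 2.34 and 2.09 after knockdown (0.61, standard error 0.132, adjusted p = 0.00206), from 52 to 91 reads. In PATU8988T it was the member just under the tested level, with a mean of 0.641 FPKM, and had 0.885, 1.06 and 0.818 FPKM against 0.346, 0.230 and 0.505. NDUFA4L2 was also the PANC1 member just above the level (mean 1.68), beside COX6B2 just below it (0.308). In MIA PaCa-2 these were NDUFC2 (4.85) and the antisense transcript NDUFV2-AS1 (0.947), and in PATU8988T the member just above was NDUFB2-AS1 (1.32). NDUFB2-AS1 was called higher in PATU8988T (0.71, adjusted p = 0.0291) with overlapping groups and 44 to 129 reads per library. Because the counting is not stated to use strand, its reads and those of NDUFB2 cannot be told apart where they overlap.

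NDUFC2, a membrane-arm subunit of complex I, was called in each line with a different direction in MIA PaCa-2. It had 4.06, 4.95 and 4.44 FPKM in the PANC1 controls against 5.04, 5.11 and 5.91 (0.25, adjusted p = 0.0300), 6.60, 4.71 and 6.0 in the MIA PaCa-2 controls against 4.24, 4.09 and 3.44 (-0.54, adjusted p = 0.0341), and 2.78, 2.22 and 2.33 in the PATU8988T controls against 3.09, 2.83 and 3.03 (0.28, adjusted p = 0.0413). The calls were lost in PANC1 without control replicate 1 or 3 or knockdown replicate 3 (adjusted p from 0.0666 to 0.117), in MIA PaCa-2 without control replicate 1 or 3 or any single knockdown library (0.0751 to 0.126), and in PATU8988T without control replicate 2 or 3 or knockdown replicate 1 or 3 (0.0961 to 0.147). ATP5F1E, the epsilon subunit of ATP synthase, rose in PANC1 from 45.4, 43.2 and 42.2 to 56.9, 52.5 and 52.9 FPKM (0.31, adjusted p = 6.65e-05). It was listed with at most 0.743 FPKM in MIA PaCa-2 and 0.247 FPKM in PATU8988T, with 17 to 105 reads per library, and was not tested there. Gene lengths used for PANC1 differ from the other lines and the gene annotation is not given, so these levels cannot be compared between lines.

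The 13 mitochondrially encoded genes took 5.16%, 3.64% and 5.28% of the reads in the MIA PaCa-2 controls and 5.99%, 5.86% and 5.88% after knockdown. In PATU8988T the shares were 3.64%, 3.72% and 3.35% against 4.0%, 3.74% and 3.17%. The MIA PaCa-2 control with the lowest share was replicate 2, and the PATU8988T groups overlapped. In MIA PaCa-2, ND4, ND4L, ND5 and COX1 were called higher (30.8%, against 18.7% of all genes) and ND6 lower (7.69%, against 21.7%). The median change over the 13 was 0.28, beside -0.03 over all genes. Without control replicate 2, 7 were higher and 5 lower, beside 35.1% and 40% of all genes. In PATU8988T, ND3 and ATP8 were called higher (15.4%, against 20.9%) and COX1 lower (7.69%, against 18.5%). The median there was 0.10, beside 0.03 over all genes.

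ND6, a complex I subunit, is the protein gene on the opposite strand of mitochondrial DNA (14149 to 14673, minus strand). It had 222, 357 and 200 FPKM in the MIA PaCa-2 controls and 68.6, 64.8 and 60.9 after knockdown (-1.96, standard error 0.209, adjusted p = 8.65e-04), with no overlap. Without control replicate 2, which held the highest value, the change was -1.70 (adjusted p = 5.54e-08). In PATU8988T it had 230, 156 and 153 FPKM against 156, 164 and 208 (-0.01, adjusted p = 0.948). The MIA PaCa-2 change was lower than that in PATU8988T by 1.94 on the log2 scale (adjusted p = 3.77e-04). Whether the counting used strand is not given in the sources used here.

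Of the 12 genes read from the other strand, 4 were called higher in MIA PaCa-2, where 18.7% of all genes were higher. Without control replicate 2, 7 were higher and others lower, as given below, beside 35.1% and 40% of all genes. COX1, the catalytic subunit of complex IV, had 6256, 4551 and 6334 FPKM against 9299, 9387 and 9258 (0.72, standard error 0.125, adjusted p = 0.00515). ND5 had 1024, 712 and 1025 against 1535, 1517 and 1521 (0.75, adjusted p = 0.00704), ND4L changed by 0.52 (adjusted p = 0.00653) and ND4 by 0.53 (adjusted p = 0.0437, lost without any single knockdown library, adjusted p from 0.116 to 0.119). All 4 rose also without control replicate 2, by 0.57, 0.57, 0.40 and 0.32. The other mitochondrial genes did not pass with the 6 libraries. Without control replicate 2, ND2 was lower, at 2742, 2716 and 2663 FPKM after knockdown against 4063 and 4190 in the remaining controls (-0.61, adjusted p = 3.00e-08). ND1 (-0.31), ATP6 (-0.25) and ATP8 (-0.11) were also lower without it, COX2 (0.17), COX3 (0.19) and ND3 (0.09) were higher, and CYTB changed by -0.03 (adjusted p = 0.157). With it, these genes had changes of -0.33 for ND2, -0.15 for ND1, -0.09 for ATP6, -0.08 for ATP8, 0.32 for COX2, 0.35 for COX3, 0.28 for ND3 and 0.16 for CYTB, all with an adjusted p of 0.0660 or more.

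**Figure D5:**
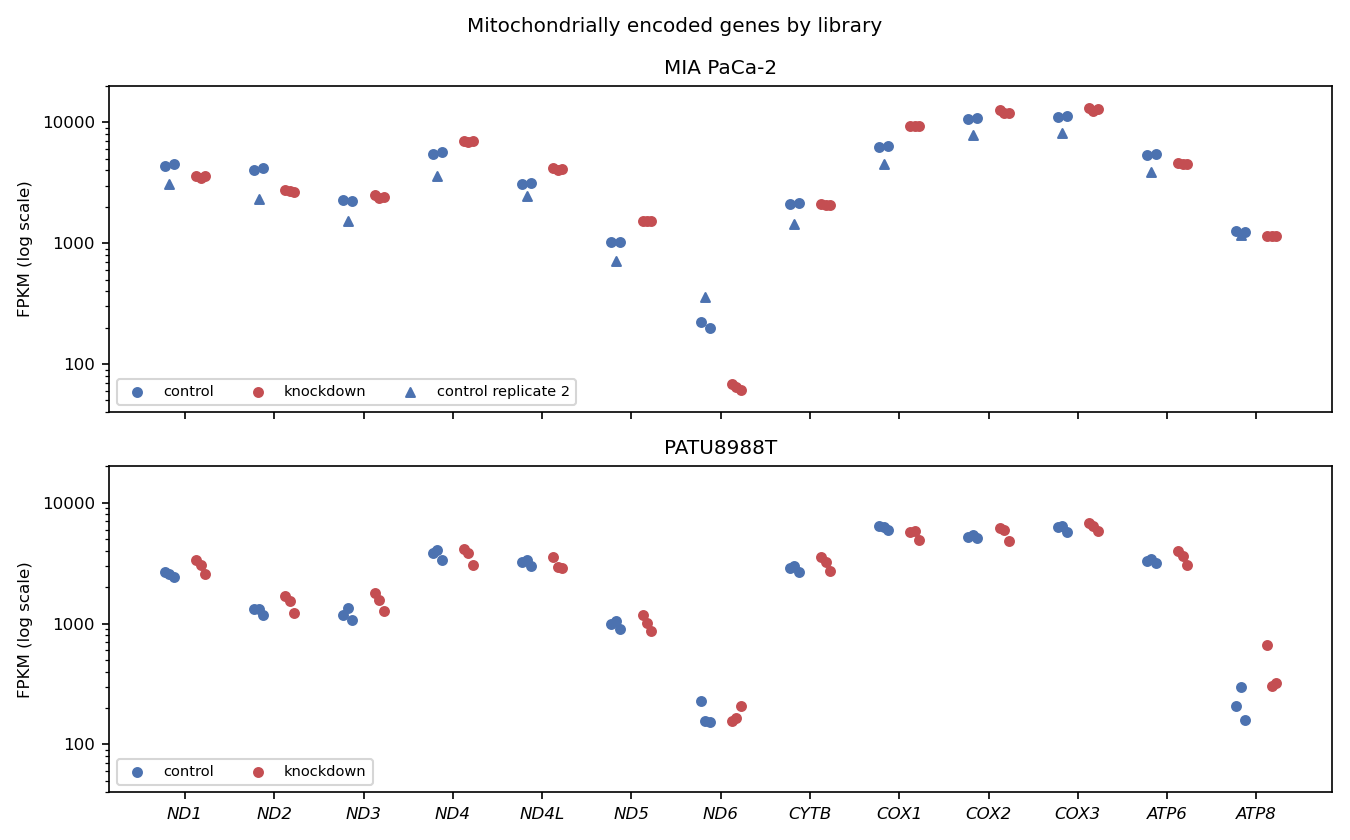
FPKM (log axis) of the 13 mitochondrially encoded genes in each MIA PaCa-2 library (top) and PATU8988T library (bottom), with controls in blue and knockdown libraries in red. The triangle marks MIA PaCa-2 control replicate 2, which lies below the other controls for every gene except ND6. For ND6 in MIA PaCa-2 the knockdown libraries lie at 60.9 to 68.6, below the controls at 200 to 357, and for ATP8 in PATU8988T the lowest knockdown library (307) lies just above the highest control (296).

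In PATU8988T, ATP8 had 209, 296 and 159 FPKM in the controls and 662, 307 and 322 after knockdown (0.91, standard error 0.289, adjusted p = 0.0318). The groups did not overlap, but the call was lost without knockdown replicate 1, control replicate 1 or control replicate 3 (adjusted p from 0.0574 to 0.109). ATP8 and ATP6 share 46 bases of the same strand, shown here because reads in this stretch could be counted for either gene or for neither (chrM:8527-8572, plus strand, GRCh38, from the GENCODE v29 transcript).
ATP8 and ATP6 overlap: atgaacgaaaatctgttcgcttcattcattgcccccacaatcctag
ATP6 changed by 0.12 (adjusted p = 0.296). COX1 had 6437, 6348 and 5963 FPKM against 5767, 5786 and 4951 (-0.19, adjusted p = 0.0408, lost without knockdown replicate 3 or any control library, adjusted p from 0.0503 to 0.129), and ND3 changed by 0.35 with overlapping groups (adjusted p = 0.0344, lost without knockdown replicate 1 or 2 or control replicate 1 or 3, adjusted p from 0.0708 to 0.118). The remaining 9 genes besides ND6 had changes from -0.04 to 0.22 and did not pass. COX1 changed differently in MIA PaCa-2 and PATU8988T (difference 0.91, adjusted p = 6.89e-04).

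Several gene lists around these complexes were followed in the same fits, and their shares are to be read against those of all genes tested, which were 40.1% higher and 32.2% lower for PANC1, 18.7% and 21.7% for MIA PaCa-2, and 20.9% and 18.5% for PATU8988T. Assembly factors of the complexes in PANC1 were higher for 25 (53.2%) and lower for 11 (23.4%) of 47 tested (median 0.19). For MIA PaCa-2 they were higher for 4 (8.33%) and lower for 13 (27.1%) of 48 (median -0.14), and for PATU8988T higher for 14 (29.8%) and lower for 3 (6.38%) of 47 (median 0.12). TACO1, which activates the translation of COX1, fell in every line, from 14.1, 17.0 and 15.5 to 4.47, 4.28 and 3.51 FPKM in PANC1 (-1.90, adjusted p = 6.04e-08), from 36.6, 43.7 and 35.6 to 6.57, 8.19 and 7.45 in MIA PaCa-2 (-2.37, adjusted p = 1.56e-04) and from 12.4, 12.5 and 11.4 to 8.83, 9.38 and 9.30 in PATU8988T (-0.40, adjusted p = 5.71e-04). The other leading changes were falls of ACAD9 (-1.01) and LYRM7 (-0.93) in PANC1, falls of the copper chaperone COX17 (-1.35) and of UQCC3 (-1.03) in MIA PaCa-2, and rises of NDUFAF2 (0.30) and TMEM70 (0.35) in PATU8988T, all past the threshold. COX17 rose in PATU8988T (0.31, adjusted p = 0.00110).

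Electron carriers and coenzyme Q synthesis genes numbered 19 in each test. PANC1 had 5 higher (26.3%, against 40.1% of all genes) and 4 lower (21.1%, against 32.2%), MIA PaCa-2 had 1 (5.26%, against 18.7%) and 6 (31.6%, against 21.7%), and PATU8988T had 7 (36.8%, against 20.9%) and 0 (against 18.5%). Their medians were 0.02, -0.22 and 0.10, beside 0.06, -0.03 and 0.03 over all genes. ETFDH, which passes electrons from fatty acid oxidation to coenzyme Q, rose in PANC1 (1.03), MIA PaCa-2 (0.70) and PATU8988T (0.25), COQ3, a methyltransferase of coenzyme Q synthesis, fell in PANC1 (-1.27) and MIA PaCa-2 (-0.80), and CYC1, cytochrome c1 of complex III, fell in PANC1 (-0.38, adjusted p = 2.87e-07). PDSS1 fell in MIA PaCa-2 (-0.62), and ETFA (0.27), COQ10B (0.34) and COQ2 (0.21) rose in PATU8988T. In the tricarboxylic acid cycle, PANC1 had 3 of 17 genes higher (17.6%, against 40.1% of all genes) and 8 lower (47.1%, against 32.2%), MIA PaCa-2 had 3 higher and 3 lower (17.6% each, against 18.7% and 21.7%), and PATU8988T had 10 higher (58.8%, against 20.9%) and 1 lower (5.88%, against 18.5%). The medians of this list were -0.07, 0.06 and 0.14. FH, fumarate hydratase, fell in PANC1 (-0.58, adjusted p = 1.01e-07) and MIA PaCa-2 (-0.46, adjusted p = 0.00213) and rose in PATU8988T (0.31, adjusted p = 6.57e-04). DLD fell in PANC1 (-0.41) and MIA PaCa-2 (-0.44), CS fell in PANC1 (-0.26), SUCLG1 rose in MIA PaCa-2 (0.22), and IDH3A (0.48) and PDHB (0.26) rose in PATU8988T.

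Genes that maintain and express mitochondrial DNA numbered 30 in the test: PANC1 had 9 higher and 9 lower (30% each, against 40.1% and 32.2% of all genes), MIA PaCa-2 had 1 higher (3.33%, against 18.7%) and 11 lower (36.7%, against 21.7%), and PATU8988T had 11 higher (36.7%, against 20.9%) and 0 lower (against 18.5%), with medians of 0.08, -0.31 and 0.09. TWNK, the mitochondrial DNA helicase, fell in PANC1 (-0.96, adjusted p = 1.48e-06) and MIA PaCa-2 (-1.30, adjusted p = 7.81e-04) and changed by 0.03 in PATU8988T (adjusted p = 0.659). SUPV3L1, a helicase of mitochondrial RNA decay, fell by 0.72 and 0.97 in PANC1 and MIA PaCa-2 and rose by 0.14 in PATU8988T (adjusted p = 0.0384). POLG, the mitochondrial DNA polymerase, fell in PANC1 (-0.35), SLIRP, an RNA-binding stabilizer of mitochondrial mRNA, fell in MIA PaCa-2 (-0.78), and ELAC2 (0.19), FASTKD5 (0.26) and TFB2M (0.40) rose in PATU8988T.

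Of the regulators of these genes, PANC1 had 1 of 11 tested higher (9.09%, against 40.1% of all genes) and 5 lower (45.5%, against 32.2%), MIA PaCa-2 had 0 of 10 higher (against 18.7%) and 2 lower (20%, against 21.7%), and PATU8988T had 3 of 9 higher (33.3%, against 20.9%) and 0 lower (against 18.5%), with medians of -0.07, -0.19 and 0.09. NRF1 fell in MIA PaCa-2, from 7.09, 7.78 and 7.0 to 3.95, 4.28 and 3.99 FPKM (-0.82, adjusted p = 0.00121), and in PANC1 (-0.37, adjusted p = 0.00904), and changed by -0.08 in PATU8988T (adjusted p = 0.475). HCFC1 fell in MIA PaCa-2 (-0.88, adjusted p = 0.00273) and rose in PATU8988T (0.27, adjusted p = 0.00439). In PANC1 the falls of PPARGC1B (-0.75), PPARGC1A (-0.34) and MYC (-0.29) had the smallest p-values. In PATU8988T, YY1 (0.21) and PPRC1 (0.21) rose, while PPRC1 changed by -0.22 in MIA PaCa-2 (adjusted p = 0.0723). Of the lists with 0 calls by limma in one direction, 2 coenzyme Q and carrier genes in PATU8988T were lower and 1 regulator in MIA PaCa-2 was higher at an unadjusted p under 0.05, against 0 for the mitochondrial DNA list and the regulators in PATU8988T, and limma voom on recovered reads also called 0 in each.

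Of 26 import genes of the TIM and TOM complexes, PANC1 had 10 higher (38.5%, against 40.1% of all genes) and 9 lower (34.6%, against 32.2%), MIA PaCa-2 had 1 higher (3.85%, against 18.7%) and 15 lower (57.7%, against 21.7%), and PATU8988T had 13 higher (50%, against 20.9%) and 2 lower (7.69%, against 18.5%), with medians of 0.05, -0.35 and 0.15. TIMM23, the channel of the inner membrane translocase, fell in PANC1 from 55.1, 58.0 and 53.9 to 21.2, 23.2 and 22.6 FPKM (-1.32, adjusted p = 3.19e-09), in MIA PaCa-2 from 94.5, 97.0 and 90.6 to 37.1, 37.3 and 34.5 (-1.37, adjusted p = 1.56e-04), and in PATU8988T by 0.12 (adjusted p = 0.0308). DNAJC19 (-1.32) and TIMM21 (-1.25) fell in MIA PaCa-2, TOMM7 (0.69) and ROMO1 (0.37) rose in PANC1, and TOMM5 (0.33), TOMM22 (0.25) and TIMM17A (0.24) rose in PATU8988T.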

How the data were processed

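The authors aligned reads with HISAT2, counted them per gene with HTSeq-count and deposited FPKM for 18 libraries, 3 per group. Versions, strand setting and gene annotation are not given in the sources used here, and the submitters' processing notes name hg38 beside mouse builds. The labels and the paper's methods name different extraction and library kits. Reads recovered from the FPKM steps came to 99.6% to 99.7% of the counted total. Gene lengths used for PANC1 differed from the other lines, and mitochondrial genes are listed at 0 there, so levels were compared within lines. Changes were fitted with limma 3.58.1 (R 4.3.3, variance trend, two-sided) on log2(FPKM + 0.1) for genes with a mean of at least 1 FPKM, with differences between lines as an interaction term. The method was tested on simulated data. The authors' 2-fold threshold was also applied. The members and gene lists were chosen with earlier results of these data known. Named were members past 2-fold, the 5 largest rises and falls per line without overlap, members called alike in all lines, mitochondrial genes, complex II, catalytic and isoform genes, and 3 genes per list and line with the smallest p. Promoters came from RefSeq (GRCh38.p14). Alternatives covered the pseudocount, filter, scaling, variance model, replicate block and each library left out. limma voom on recovered reads was chosen after seeing the data. An exact permutation test of 3 against 3 cannot go below p = 0.1 and was not used.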

Additional observations from a re-analysis of the deposited data

Results flagged for a closer look

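The changes of 11 members differed between lines by the interaction test in at least 1 of the comparisons listed here, given as the change in the first line minus that in the second on the log2 scale. Between PANC1 and MIA PaCa-2 the differences were -0.96 for COX7C (adjusted p = 0.00235), -0.80 for UQCRHL (adjusted p = 0.00846), 0.79 for NDUFC2 (adjusted p = 0.00807), 0.56 for NDUFAB1 (adjusted p = 0.00376) and -0.54 for ATP5PD (adjusted p = 0.00448). Between PANC1 and PATU8988T they were -2.98 for COX7C (adjusted p = 4.77e-12), -1.12 for ATP5PB (adjusted p = 1.66e-10), -0.69 for NDUFB8 (adjusted p = 1.78e-07), 0.67 for COX7A2L (adjusted p = 1.32e-08) and -0.64 for UQCRFS1 (adjusted p = 6.87e-07). Between MIA PaCa-2 and PATU8988T they were -2.03 for COX7C (adjusted p = 3.99e-06), -1.94 for ND6 (adjusted p = 3.77e-04), 0.91 for COX1 (adjusted p = 6.89e-04), -0.84 for UQCRFS1 (adjusted p = 7.99e-05) and -0.82 for NDUFC2 (adjusted p = 0.00462). All 15 stayed past the threshold under the 18 or 19 alternatives run for each.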

How the results depend on the processing

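Over the left-out libraries, the members called higher were 36 to 39 in PANC1, 8 to 50 in MIA PaCa-2 and 25 to 47 in PATU8988T, and those called lower 17 to 21, 7 to 23 and 1 to 3, with 0 to 1 past 2-fold in PATU8988T. The shares higher were 44.4% to 48.1%, 8.70% to 54.3% and 26.6% to 50% of members. Over all genes they were 37.7% to 38.3%, 10.5% to 35.1% and 13.6% to 23.3%. The shares lower were 21.0% to 25.9%, 7.61% to 25% and 1.06% to 3.19% of members. Over all genes these were 30.4% to 31.1%, 12.2% to 40% and 14.4% to 18.9%. MIA PaCa-2 control replicate 2 gave the 50 and 23, each knockdown library of that line the 8, and PATU8988T control replicate 2 the 25. In PATU8988T, 1 member was lower without any control library or knockdown replicate 3, and 1 was past 2-fold without control replicate 2 or knockdown replicate 2 or 3. Members differing between lines numbered 14 to 46 (PANC1 and MIA PaCa-2), 34 to 43 (PANC1 and PATU8988T) and 22 to 52 (MIA PaCa-2 and PATU8988T), and 46 and 52 were without MIA PaCa-2 control replicate 2. Shares over all genes are not given for these differences, so the ranges are not read as particular to the members. With the spread shared over 18 libraries, 79 members were tested. In PANC1, 18 were then higher (22.8%, against 29.5% of all genes), a share under that of all genes, unlike in the main fit. In MIA PaCa-2, 26 were higher (32.9%, against 27.0%), 17 lower (21.5%, against 34.7%) and 1 past 2-fold. PATU8988T had 20 higher (25.3%, against 9.64%) and 1 lower (1.27%, against 9.19%). A fold above 1.5 was passed by 6, 9 and 3 members, for which the share over all genes is not given. In PATU8988T, no filter gave 27 higher (26.0%, against 8.04% of all genes) and 1 past 2-fold. No variance trend there gave 29 higher (30.9%, against 18.1%) and 1 lower (1.06%, against 17.9%). Median-of-ratios scaling gave 27 higher and 28 lower in PANC1, against 40 and 21. limma voom, chosen after seeing the data, gave 38 and 20, 15 and 11, and 42 and 2. The cause of these shifts was not tested.

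With the replicate number as a block, PANC1 had 40 members higher and 20 lower (49.4% and 24.7%, against 40.1% and 32.2% of all genes). MIA PaCa-2 had 10 and 8 (10.9% and 8.70%, against 14.4% and 16.9%). PATU8988T had 43 and 2 (45.7% and 2.13%, against 18.9% and 17.1%). With the block, 13 members differed between PANC1 and MIA PaCa-2, 40 between PANC1 and PATU8988T and 21 between MIA PaCa-2 and PATU8988T. Same-numbered libraries correlated by -0.0032, 0.08 and 0.07 (PANC1), -0.06, -0.11 and -0.04 (MIA PaCa-2) and 0.13, -0.10 and -0.03 (PATU8988T), so the numbers were not taken as pairs.

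Of 1901 alternative values for 129 gene and line pairs, 1681 kept direction and side of the threshold, 143 lost the call, 52 gained one and 25 changed sign. None of those 25 concerned a called change. Under median-of-ratios scaling NDUFAB1 (-0.0046) and COX8A (-0.023) changed sign in PANC1. Over the left-out libraries, signs differed in PATU8988T for ND6 (-0.14 to 0.18), ND5 (-0.068 to 0.16), ND4 (-0.13 to 0.088), ND4L (-0.13 to 0.032) and ATP5IF1 (-0.068 to 0.021), in MIA PaCa-2 for NDUFB2 (-0.043 to 0.14), CYTB (-0.026 to 0.26), ATP5IF1 (-0.28 to 0.0025), ATP5F1A (-0.035 to 0.11), COX8A (-0.043 to 0.19) and ATP5MC1 (-0.033 to 0.16), and in PANC1 for NDUFAB1 (-0.0058 to 0.094). Depth limits NDUFA4L2, COX6B2 and the muscle, lung and testis isoforms, which had few reads.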
